A study of Homo sapiens with 4 samples.

Results

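The genes described here encode interferon-induced effector proteins that act at membranes or bind GTP: IFITM1, IFITM2, IFITM3, BST2, IFI6, IFI27, IFI44, IFI44L, MX1 and MX2. They were measured in LNCaP cells, a human line from prostate cancer that responds to androgens, grown with 10% serum. Members were all probe sets whose platform annotation names one of these 10 genes alone, dim probe sets included, which gave 11 of the 22277 probe sets on the array; 11963 genes in all had a probe set of their own. IFI44 had 2 probe sets and each of the other genes had 1. There were 2 groups of 2 arrays each. In the MED1 group, the cells had been given an expression vector for MED1 by transient lipofection; MED1 belongs to Mediator, the complex between transcription factors and RNA polymerase II. In the empty vector group, they had been transfected in the same way with the vector lacking MED1, so both groups carried plasmid DNA. RNA was taken at 24 hours. The share of cells that took up the vector is not given in the labels, nor whether the duplicates were separate cultures. The genes were picked with results of the same contrast in view, so all values below are a description of them and no test is made on them.

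Type I and type III interferons bind surface receptors, and kinases of the JAK family then activate transcription factors that bind the interferon-stimulated response element (ISRE), a pair of GAAA letters in close succession, near the starts of many target genes. The IFITM proteins sit in plasma and endosomal membranes and hinder fusion of enveloped viruses. BST2 (tetherin) holds budding virus particles at the cell surface. IFI6 and IFI27 are small hydrophobic proteins of one family, found in mitochondrial and endoplasmic reticulum membranes. MX1 and MX2 are dynamin-like GTPases that block virus particles in the cytoplasm and at the nuclear pore, and IFI44 and IFI44L are relatives with a GTP-binding motif whose genes lie side by side.

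The promoters of the 8 genes that could be searched share the ISRE letters. They are shown here as a feature of those members outside the array values. RefSeq (GRCh38.p14) windows of 300 bases, from 250 before to 50 after a transcription start, were at hand for 8 of the 10 genes, in 12 windows; IFITM2 and MX2 were not matched. The motif GAAANNGAAA was searched on both strands (TTTCNNTTTC on the other), where matches may overlap. It was in a window of 8 of the 8 genes and in 11 of the 12 windows. Of all 35116 windows, 3.57% held it, and of all 27305 genes 4.38% had it in at least one window. Among 32 genes of the other effector lists described below, 20 had it (62.5%). The motif TTCNNNGAA, which reads the same on both strands and is the core of the gamma-activated site, was in a window of 4 of the 8 genes. It was in 6 of the 32 other effector genes (18.75%) and in 9.38% of all genes. A match describes letters and not a bound site. The stretches below are written 5′ to 3′ on the gene's strand, with the ISRE matches that lie whole within a stretch in capitals.

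IFI6 carried 3 matches upstream of its start, in the stretch chr1:27672265-27672378 on the minus strand. The first and the second lie in copies of the same 29 bases, set 41 bases apart.
IFI6: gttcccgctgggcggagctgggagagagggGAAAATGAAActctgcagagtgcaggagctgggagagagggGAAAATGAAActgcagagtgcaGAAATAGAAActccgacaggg
IFI44L carried 2 matches, in chr1:78620254-78620395 on the plus strand, each inside a copy of the same 85 bases, set 91 bases apart. The second copy runs on past the end of the printed stretch.
IFI44L: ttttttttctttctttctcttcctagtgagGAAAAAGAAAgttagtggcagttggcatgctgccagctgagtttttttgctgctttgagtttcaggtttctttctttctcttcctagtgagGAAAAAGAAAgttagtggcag

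Not every match of the other genes is printed: IFITM1, IFITM3 and IFI27 had 2 in a window, and MX1 had another in a different window. Single stretches of these genes are shown so that members with unlike array values can be set side by side. They are those of IFITM1 at chr11:314024-314053 (plus strand), IFITM3 at chr11:320876-320905 (minus), IFI27 at chr14:94110631-94110660 (plus), BST2 at chr19:17405741-17405770 (minus), IFI44 at chr1:78649761-78649790 (plus) and MX1 at chr21:41420559-41420588 (plus).
IFITM1: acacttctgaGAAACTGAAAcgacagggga
IFITM3: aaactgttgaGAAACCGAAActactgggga
IFI27: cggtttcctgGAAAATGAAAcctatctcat
BST2: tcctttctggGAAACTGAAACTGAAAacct
IFI44: gcacactgagTTTCAGTTTCctttctctga
MX1: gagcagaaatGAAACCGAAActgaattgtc
The BST2 stretch holds 2 overlapping matches, and the IFI44 match is on the opposite strand. The printed match of IFITM1 begins at -6 and that of IFITM3 at -35 relative to the start. The printed MX1 match begins at 11 bases past the start of the first of its 3 windows. MX1 thus holds the same 10 letters, GAAACCGAAA, as IFITM3.

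The values are MAS5 signals on a linear scale, scaled by array so that the mean after trimming was 500.2 on each. Median signals were 77.4 to 83.2. The actin controls, read at the 3′ and 5′ ends, had ratios of 9.40 and 9.32 in the MED1 arrays and of 8.14 and 9.45 in the others. The GAPDH controls had ratios of 1.16 and 1.24 in the MED1 arrays and of 1.16 and 1.27 in the others. The excess of 3′ signal was thus larger for actin on every array. One MED1 probe set read 559 and 807 in the MED1 arrays and 292 and 315 in the empty vector arrays. A brighter one read 1172 and 1074 against 1097 and 1011, where the groups overlapped. Prostate luminal markers read up to 8663 (KLK2), and 6 of their 10 probe sets were lower in both MED1 arrays. Of leukocyte markers, 6 of 7 were on the array in 8 probe sets. Their summed signal was 69.3 and 91.5 in the MED1 arrays and 71.1 and 119.5 in the empty vector arrays, with a highest single signal of 42.4 and none listed at 0. Of 24 probe sets for basal prostate, endothelial and fibroblast markers, the highest signal was 156. Of these, 1 was higher in both MED1 arrays, where 15.7% of all probe sets were. Their part in the results below was not tested.

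In the MED1 arrays, 7 of the 11 probe sets read above both empty vector arrays on both arrays: those of IFITM1, IFITM3, BST2, IFI6, IFI27 and IFI44L, and one of IFI44. The other IFI44 probe set and MX1 read below both empty vector arrays on both arrays, and IFITM2 and MX2 overlapped. Over all 22215 probe sets other than controls, 15.7% were higher in this sense and 21.8% lower. Higher by at least 1.5-fold in every pair of a MED1 and an empty vector array were 6 members, all of the 7 but IFITM3, where the share over all probe sets was 2.29%. Lower by that much were 2, against 3.63%. Below the filter level described next, 3 of 5 members were higher on both arrays and 1 lower, where 13.3% and 20.5% of all such dim probe sets were. The genes were chosen on this contrast, so nothing is read from these shares. In a bulk culture, more cells with a transcript and more transcript per cell cannot be told apart.

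**Figure D1:**
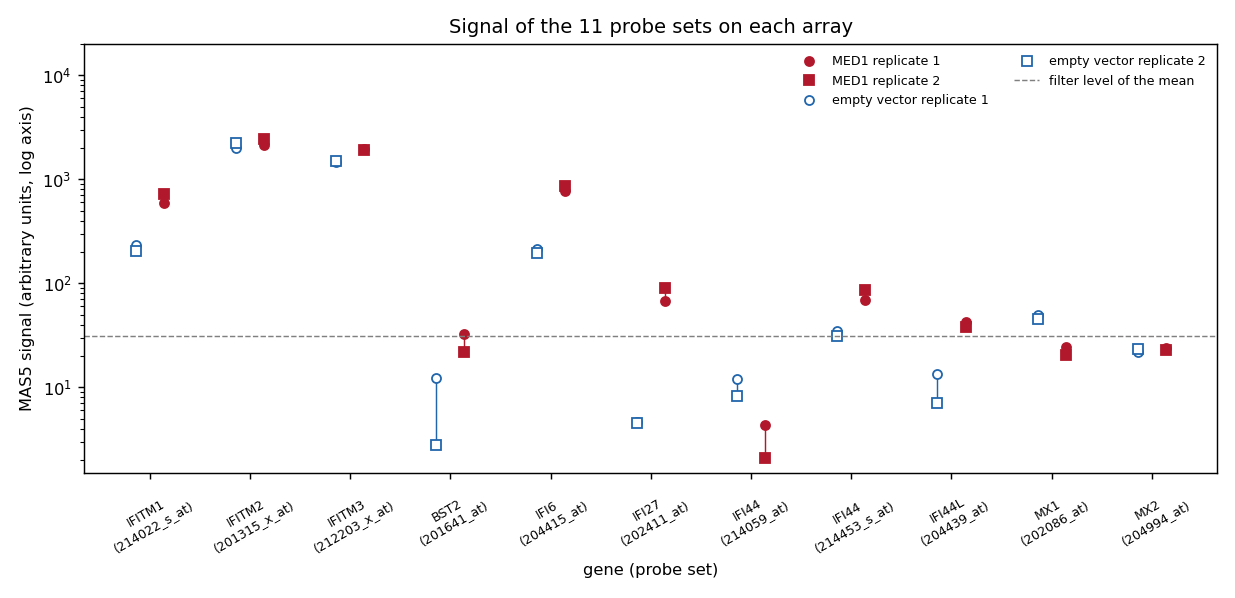
MAS5 signal (log axis) of each of the 11 probe sets on the 2 MED1 arrays (filled) and the 2 empty vector arrays (open), with lines joining the 2 arrays of a group and a dashed line at the signal of 31.0 used as a filter on the mean. MED1 arrays lie above empty vector arrays in 7 probe sets, below them in 2 (MX1 and one of IFI44) and among them in 2 (IFITM2 and MX2).

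Fold changes come from limma on log2(signal + 16), a scale that shrinks differences of dim probe sets. Its main fit tested 13329 probe sets, those at or above the 40th percentile of the mean log2 value, which equals a signal of 31.0. Of the 11 members, 6 lay above that level and 5 below it: BST2, IFI27, IFI44L, MX2 and one of IFI44. MX1 was just inside, with a mean of 33.4, and IFI27 just outside, with 28.1. Since the array files carry no detection calls, signals below this level cannot be compared with a known background. For the 5 dim probe sets, fold changes and standard errors (SE) come from the same fit without the filter.

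Among the IFITM genes, IFITM1 had the largest difference between the groups, and the arrays of IFITM2 overlapped. IFITM1, which acts mainly at the plasma membrane, read 589 and 725 in the MED1 arrays and 233 and 207 in the empty vector arrays. Every MED1 value was at least 2.53 times every empty vector value. The arrays of a pair differed by 0.29 (MED1) and 0.16 (empty vector) on the log2 scale. Its log2 fold change was 1.51 ± 0.14 (SE).

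IFITM3, an endosomal protein that restricts influenza virus, read 1971 and 1892 against 1472 and 1485. The groups did not overlap, but the ratio of means was 1.31, with a log2 fold change of 0.38 ± 0.09. IFITM2, its close relative, read 2131 and 2437 against 2004 and 2250. Its arrays overlapped, and the log2 fold change was 0.10 ± 0.11, so that the difference was no larger than its error. The probe sets of IFITM2 and IFITM3 are of the kind that Affymetrix marks as matching other transcripts too, and these genes are near copies of each other, so their signals are not certain to be separate. The IFITM1 probe set carries a related mark, for probes shared by several transcripts, though its annotation names IFITM1 alone. A further probe set, annotated to IFITM1 and IFITM2 together and so no member, read 465 and 508 against 144 and 197.

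BST2 was dim in both groups. It read 32.8 and 21.7 in the MED1 arrays and 12.4 and 2.77 in the empty vector arrays. All MED1 values were higher, yet the empty vector pair itself differed more than any other pair of one group among the 11 probe sets, by 0.60 on the log2 scale. The log2 fold change was 0.89 ± 0.30 (SE, fit without the filter).

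The related genes IFI6 and IFI27 were both higher in the MED1 arrays, and with a pseudocount of 16 they had the highest fold changes of the members. IFI6 read 774 and 869 in the MED1 arrays and 215 and 196 in the empty vector arrays, a ratio of means of 4.01 and a log2 fold change of 1.92 ± 0.12 (SE). Each array pair gave a ratio between 3.61 and 4.45. Counted from the highest, this was the 8th fold change among all 22215 probe sets. Those above it included IFIT1 (3.65), OAS1 (2.60 and 2.03) and OASL (2.45), interferon-response genes of the lists described below. IFI27 read 67.5 and 90.7 against 4.62 and 4.52. Its groups lay further apart than those of any other member in signal ratio, at 14.6 or more in every pair, but from an empty vector signal far under the filter level. The log2 fold change was 2.20 ± 0.27 with a pseudocount of 16, 3.83 with 1 and 1.06 with 64, whereas IFI6 gave 1.996 and 1.72 with these, and IFITM1 1.34 with 64. The place of IFI27 above or below IFI6 and IFITM1 therefore depends on how dim signals are weighted.

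The 2 probe sets of IFI44 went opposite ways. The brighter one read 69.8 and 85.8 in the MED1 arrays and 34.99 and 30.9 in the empty vector arrays, with a log2 fold change of 0.93 ± 0.23 (SE). The dimmer one read 4.34 and 2.07 against 12.03 and 8.16, with a log2 fold change of -0.44 ± 0.19 (fit without the filter). Both separated the groups. IFI44 is the only member with more than 1 probe set, so such a check was possible for no other gene. All 4 signals of the dimmer one lay below the filter level and below all 4 of its partner. IFI44L, the neighbouring gene, read 42.3 and 38.0 against 13.5 and 7.12, and its log2 fold change was 1.10 ± 0.26 (SE, fit without the filter). It thus lay on the same side as the brighter IFI44 probe set.

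Neither MX gene was higher in the MED1 arrays. MX1 read 24.6 and 20.6 in the MED1 arrays and 49.6 and 45.1 in the empty vector arrays. The groups did not overlap and lay apart in the opposite direction to IFI6, with every empty vector value at least 1.83 times every MED1 value. The log2 fold change was -0.71 ± 0.26 (SE). MX2 read 23.7 and 22.7 against 21.6 and 23.4, all 4 within a narrow band below the filter level. Its log2 fold change was 0.02 ± 0.24 (fit without the filter), which leaves room for a change of either sign.

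**Figure D2:**
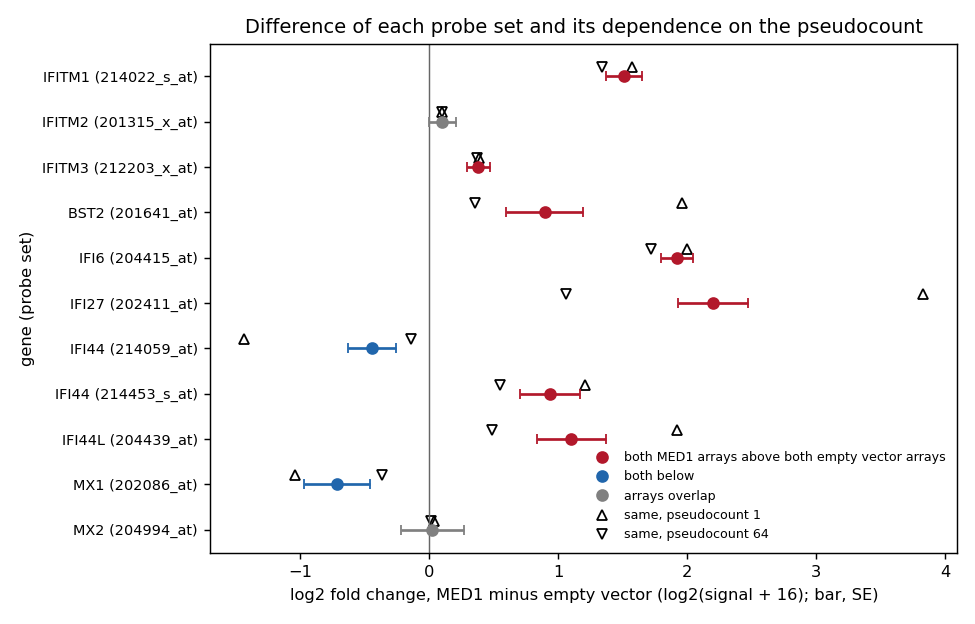
Log2 fold change (MED1 minus empty vector) of each probe set on log2(signal + 16), with SE bars, coloured by whether the arrays of the groups separate; triangles give the value with a pseudocount of 1 (up) and 64 (down). IFI6, IFITM1, IFITM2 and IFITM3 move little with the pseudocount, while IFI27 spans 1.06 to 3.83.

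From the highest fold change to the lowest, the probe sets ran IFI27, IFI6, IFITM1, IFI44L, the brighter one of IFI44, BST2, IFITM3, IFITM2, MX2, the dimmer one of IFI44 and MX1. Within 1 SE, IFI27 and IFI6 overlapped, as did IFI44L, the brighter IFI44 and BST2, then IFITM2 and MX2, and then the dimmer IFI44 and MX1. The median over all 11 was 0.89, beside -0.02 over all 22215 probe sets. It was 0.60 without empty vector replicate 2, the array on which BST2 was lowest.

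In the fit over all tested probe sets, 2 members passed at a Benjamini-Hochberg adjusted threshold of 0.05, IFI6 and IFITM1, both higher. Of all 13329 tested probe sets, 0.105% passed higher and 0.188% lower. This count, too, is from the contrast that chose the genes and is given as a description. IFITM2, IFITM3, MX1 and the brighter IFI44 probe set were tested and did not pass. No member passed when dim probe sets were kept in the fit, and IFITM1 did not pass without the variance trend. IFITM3 passed as well when the replicate number was a block, and IFI27 with a pseudocount of 64, under which it lay above the filter.

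**Figure D3:**
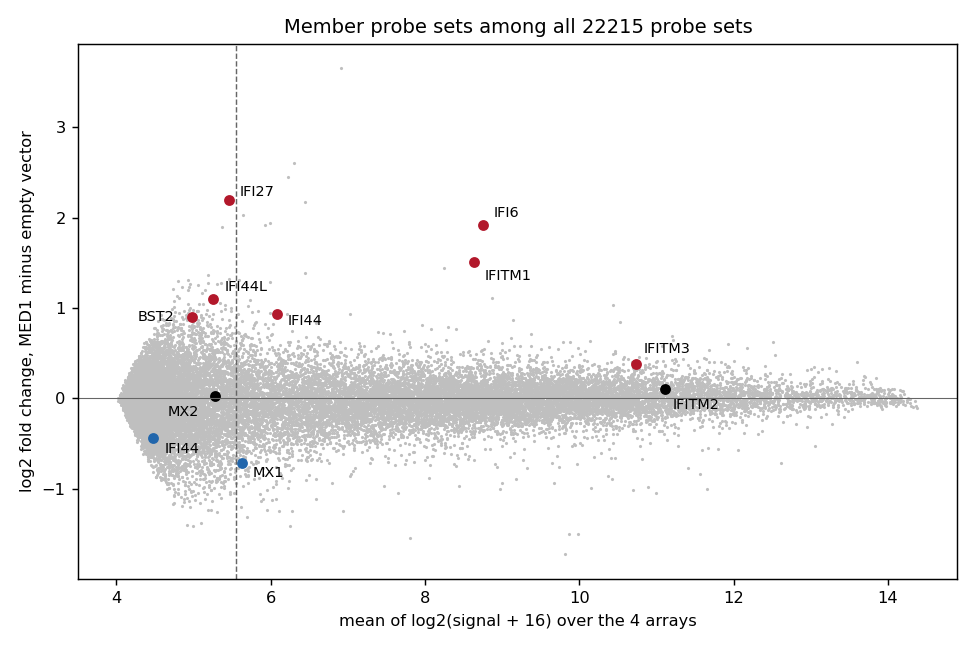
Mean of log2(signal + 16) over the 4 arrays (horizontal) against log2 fold change, MED1 minus empty vector (vertical), for all 22215 probe sets (grey) and the 11 members (red, both MED1 arrays above; blue, both below; black, overlapping); the dashed line is the filter level. IFI6 (1.92) and IFITM1 (1.51) stand clear of the grey band at their signal, whereas BST2, IFI44L, MX1 and MX2 lie where the band is widest or next to it.

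The arrays of a group resembled each other in these genes. Against each empty vector array, each MED1 array was higher in 8 or 9 of the 11 probe sets, and the median size of the log2 difference was 0.75 to 1.01. Between the MED1 arrays it was 0.17, with 5 probe sets higher in replicate 2, and between the empty vector arrays 0.12, with 3 higher in replicate 2. Over all probe sets, the same medians were 0.17 to 0.22 between groups, and 0.16 and 0.18 within them. The choice of genes on this contrast favours a larger figure between groups. It does not hold for each of them: the group difference of IFITM2 and of MX2 was smaller than the differences within their groups.

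Genes with profiles near those of IFI6 and IFITM1 were sought among 11825 tested probe sets of other single genes. Nearness was the root mean square difference of log2 values centred on each gene's own mean over the 4 arrays. Nearest to IFI6 were IDH3G (0.18), a subunit of a citric acid cycle enzyme, OAS1 (0.22) and IFIT2 (0.26), followed by OASL (0.29) and CYP3A4 (0.36). The IDH3G and CYP3A4 probe sets are of the kind matching other transcripts too. IDH3G read 181 and 157 against 26.2 and 24.0. Nearest to IFITM1 were MED1 itself (0.24), by the probe set that differed between groups, RSAD2 (0.27), CXCL10 (0.29), IFIT2 (0.30) and ISG15 (0.31). CXCL10, an interferon-induced chemokine, read 84.9 and 82.5 against 18.2 and 33.1. With 4 arrays in 2 groups, such nearness reflects little beyond a like difference between the groups.

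Other genes of the interferon response were counted in lists. Of the IFIT genes, which bind foreign RNA, 1 of 5 tested probe sets passed, that of IFIT1, and 4 of 5 were higher in both MED1 arrays. IFIT5 read 170 and 143 against 121 and 106 by its brighter probe set and overlapped by the other. Of the OAS genes, sensors of double-stranded RNA and their relative OASL, 3 of 5 tested probe sets passed, for OAS1 and OASL, and 4 of 7 were higher. OAS3 read 150 and 155 against 115 and 113. Of 5 ISG15-system probe sets, 1 passed, that of ISG15, and 4 were higher. HERC6, of a family of ligases, read 339 and 390 against 257 and 263. Medians over all probe sets of these lists were 1.38, 0.53 and 0.65 on the log2 scale, beside 0.89 for the members and -0.02 for all probe sets.

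Among 29 further effector genes on the array, with 53 probe sets, 0 of 30 tested probe sets passed in limma, and 8 had an unadjusted p under 0.05. Over all 13329 tested probe sets, 9.2% had an unadjusted p that low, and this share and the 15.7% higher and 21.8% lower on both arrays are the background for each list. Of the 53, 19 were higher in both MED1 arrays and 5 lower, with a median log2 fold change of 0.07. The RNA-editing enzyme ADAR read 1516 and 1612 against 1461 and 1510, and TRIM14, a mitochondrial adaptor, 1829 and 1914 against 1600 and 1556 by its brightest probe set, while its 3 other probe sets overlapped. By at least 1.5-fold in every array pair, 7 of the 53 were higher and 0 lower, where 2.29% and 3.63% of all probe sets were. The highest fold change of this list was that of RIGI (1.89, fit without the filter), named after its values were seen. It read 61.0 and 66.7 against 7.49 and 3.70, with a mean below the filter level.

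Upstream genes of the pathway gave few separated values. Of 13 probe sets for receptors, kinases, IRF9 and SOCS feedback inhibitors, 0 of 7 tested passed in limma and 1 had an unadjusted p under 0.05; of the 13, 1 was higher and 1 lower, with a median of -0.03. IFNAR2, a chain of the type I interferon receptor, read 450 and 470 against 466 and 471 by its brighter probe set, and the groups overlapped in both of its probe sets. The kinase TYK2 read 320 and 301 against 290 and 335. The one higher was IRF9, which pairs with activated STAT proteins on the ISRE, at 88.2 and 102 against 42.3 and 66.4; it was named after its values were seen. All 14 probe sets of interferon genes lay below the filter level; 3 were higher in both MED1 arrays, 1 lower and 10 overlapping. Their highest signal was 60.8, of IFNA17 on MED1 replicate 1, where replicate 2 read 8.82 and the empty vector arrays 1.23 and 2.34. IFNA14 read 13.3 and 19.0 against 15.3 and 37.8. IFNB1 read 8.53 and 4.43 against 1.32 and 3.77, and IFNA1, the lower one, 4.34 and 1.76 against 13.0 and 11.8; both were named after their values were seen. Such signals do not show whether an interferon transcript was present.

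Relatives and partners of the members were fixed as lists too. Of 9 probe sets of dynamins and guanylate-binding proteins, relatives of the MX GTPases, 0 of 5 tested passed in limma (1 at an unadjusted p under 0.05), 2 were higher and 2 lower. The 2 higher were of GBP1 and GBP2, named after their values were seen. Both genes are also in the list of further effector genes, so these probe sets are counted there too. The mitochondrial fission dynamin DNM1L read 787 and 823 against 889 and 894, and DNM2 157 and 189 against 216 and 121 by its brighter probe set. Of 7 probe sets for partners of these proteins, 0 of 6 tested passed in limma (1 at an unadjusted p under 0.05) and 5 were higher. The endoplasmic reticulum chaperone HSPA5 read 5319 and 5182 against 4136 and 4157, a log2 fold change of 0.34 ± 0.09 (SE), and VAPA, a membrane contact protein that binds IFITM3, read 4823 and 4971 against 4563 and 3992.

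**Figure D4:**
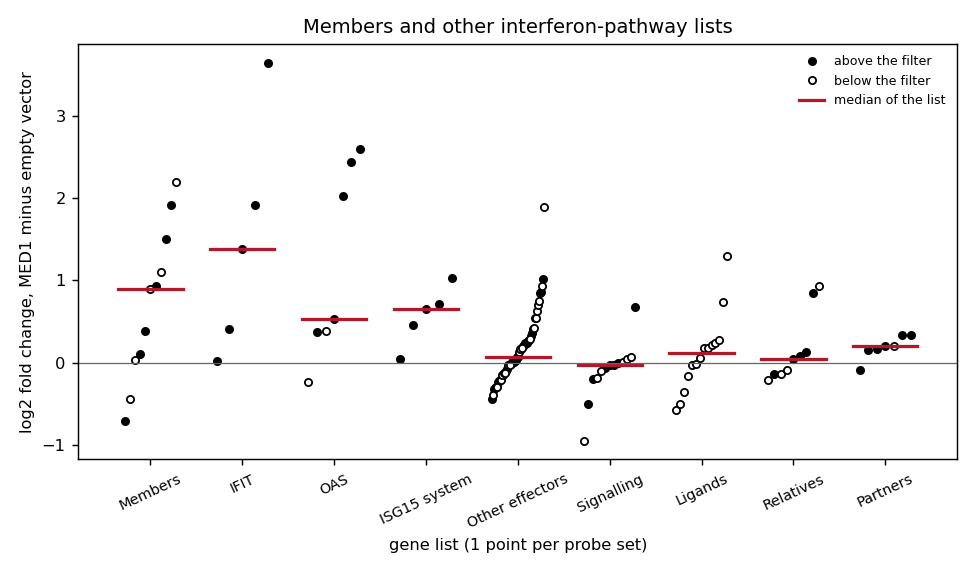
Log2 fold change (MED1 minus empty vector, fit without the filter) of each probe set in the members and in 8 other lists, filled where above the filter and open where below, with the median of each list in red. Medians run from -0.03 (signalling) to 1.38 (IFIT), and the members, at 0.89, include values below 0 for MX1 and one IFI44 probe set.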

How the data were processed

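Expression was measured on 4 arrays. The deposited intensity values are MAS5 signals (version unstated), per the submitters' processing notes, on a linear scale; earlier steps were not given in the sources used here. Groups came from titles. For the controls, 1 label field (the description) names the MED1 vector; it was not followed, since 3 other fields call them empty vector. Of 22277 probe sets, 62 controls were left out, and 19064 of the others name 1 gene, 1043 several and 2108 none. Signals were transformed to log2(signal + 16) and fitted with limma 3.58.1 in R 4.3.3 (eBayes with intensity trend, Benjamini-Hochberg), and the procedure was tested on simulated data. Arrays have no read depth; their number limits precision, and the spread measured is that between these samples, which may be technical. Members and lists were chosen with earlier results of these data known. Besides the members and MED1, named were the 5 nearest profiles of IFI6 and of IFITM1 and, from each list, genes that passed and the 2 of highest mean signal; exceptions are stated. RefSeq promoter sequences (GRCh38.p14) were searched by exact letters, and plots were drawn with matplotlib 3.10.9. Alternatives covered the pseudocount, scaling, filter, variance model, replicate block and each array left out.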

Additional observations from a re-analysis of the deposited data

How the results depend on the processing

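The main count was 39 passing probe sets (limma, Benjamini-Hochberg), 2 of them members. It was 0, with 0 members, when no probe set was filtered (1680 of 22215 passed at an unadjusted p of 0.05), 5 with 1 member without the variance trend, and 239 with the replicate number as a block, which added IFITM3 to the members and ended no member's call. The 2 pairs are too few to treat the numbers as pairing. Leaving out 1 array gave 25 to 216 passing probe sets, 2 members each time, and a members' median log2 fold change of 0.60 to 0.99; the lone array is then assumed to vary like the other group. That median was 0.89 with all arrays, 1.21 with a pseudocount of 1 and 0.37 with 64, since dim probe sets weigh more on the first. Of the 7 members that were higher and the 2 lower in all arrays, 3 and 0 lay above a filter at the 60th percentile, which tests fewer probe sets. Of the 11 probe sets, 10 kept their sign in all alternatives run; MX2, never called, ranged from -0.00867 (without empty vector replicate 1) to 0.0585 with an array left out. Beyond these, the cause was not tested. Signal over background could not be judged without detection calls.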
